A study of Mus musculus with 24 samples.

Results

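Plasma cells, the end stage of B cell differentiation that secretes antibody, were compared with marginal zone B cells, a population at the outer border of the splenic follicle, to see how much of the secretory program was already present in them. The comparison used 6 of the 24 arrays of the series, chosen by their titles: 3 arrays of plasma cells of day 7 and 3 of marginal zone B cells. The 3 arrays of follicular B cells, the main recirculating population, stood beside them as a second population that had not become plasma cells. Every group came from spleens of female C57BL/6 mice aged 8 to 10 weeks, at immunization in the case of the plasma cells. Plasma cells were taken 7 days after immunization with NP-CG in alum (also spelled NP-CGG in the labels), a hapten coupled to a carrier, as NIP-binding B220+ cells with low IgG1, CD138 and an Igλ light chain, after cells carrying IgD, IgM, CD3, CD5, CD90, DX5, NK1.1, F4/80, Gr1 or TER119 had been removed. Marginal zone cells were the B220+ AA4.1- fraction with high CD21 and low CD23, and follicular cells the B220+ AA4.1- fraction with intermediate CD21 and CD23. For marginal zone and follicular cells, the cells removed first carried CD3, CD5, CD11b, CD43, CD90, CD95, CD138, F4/80, Gr-1 or TER119, and the labels name no immunization. The depletion therefore differed between the groups compared: CD11b, CD43, CD95 and CD138 were targeted only for the marginal zone and follicular cells, and IgD, IgM, DX5 and NK1.1 only for the plasma cells. The labels do not say whether a sample was 1 mouse or a pool, so p-values measure the spread between these samples only.

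A cell that turns to antibody secretion enlarges its endoplasmic reticulum (ER). Proteins enter the ER through the translocon, are folded by chaperones and disulfide isomerases, receive N-linked sugars, and leave for the Golgi in coated vesicles, while misfolded chains are pulled back and degraded. Blimp-1 (Prdm1) represses the B cell program, and XBP1, which the ER sensor IRE1 (Ern1) activates by splicing its messenger RNA, drives much of the secretory machinery. Marginal zone B cells are known for turning into plasma cells faster than follicular cells.

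The values were log2 signals with a floor of 2.15, and array medians of 2.41 to 2.67 over the 9 arrays, so a value above the array median is little more than a value off the floor. Upper quartiles lay between 8.80 and 9.14, and 38.6% to 43.1% of values were at the floor. Across genes, plasma arrays correlated with each other at r = 0.985 to 0.998, marginal zone arrays at 0.994 to 0.997, and the groups with each other at 0.904 to 0.912; genes are not independent replicates. Plasma replicate 2 and follicular replicate 1 stood apart from the other arrays of their group, with 38.6% and 39.3% of values at the floor. Markers of other cells moved with the comparison. Of 13 myeloid genes tested, 10 were called higher in plasma cells and 1, Mpeg1, lower. The summed signal of the 15 listed probe sets was 15.37 to 15.49 on the log2 scale in plasma arrays. It was 12.34 to 12.94 in marginal zone arrays and 8.00 to 9.28 in follicular arrays. Most of the marginal zone sum came from Mpeg1 alone, at 12.76, 12.24 and 12.23. The neutrophil genes S100a8 (13.37, 13.37 and 13.14) and S100a9 (14.23, 14.31 and 14.07) were bright on every plasma array and at the floor on every marginal zone array, while Itgam, which encodes CD11b, averaged 2.16 in plasma cells. Among erythroid genes Car1 averaged 10.82 and the hemoglobin gene Hba-a1 stayed at the floor; the T cell genes Cd3d, Cd3e and Cd3g were at the floor in both groups. The summed erythroid and platelet signal was 10.78 to 12.77 in plasma arrays and 5.35 on each marginal zone array. Over all genes tested, 19.2% were called higher in plasma cells and 24% lower. In plasma cells 4 of 8 T cell genes tested were called higher and 2 lower, and 2 of 6 dendritic cell genes were higher. Of 4 NK cell genes, 2 were higher and 1 lower, and both erythroid and platelet genes tested were higher. The part of such cells in the results below was not tested, and in bulk samples fewer cells of a type and less RNA per cell cannot be told apart.

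Most genes of the secretory pathway gave signal in marginal zone cells, at lower levels than in plasma cells. The 6 lists with 188 measured genes covered regulators, ER chaperones and folding enzymes, translocation, vesicle transport, N-glycosylation and ER-associated degradation, and all 188 passed the filter on dim genes. In marginal zone cells 185 of the 188 lay above the array median on all 3 arrays, where 85.7% of all 11208 genes tested did, and 158 lay above the upper quartile, where 53.9% of all genes did. Plasma cells had 187 above the median and 176 above the upper quartile, where 85.6% and 53% of all genes were. Follicular cells had 184 and 151, where 83.8% and 53.4% of all genes were. The 3 genes not above the median on any marginal zone array were Fkbp11, Pdia5 and Trib3. The median level of the 188 genes was 11.29 in marginal zone cells, 11.29 in follicular cells and 13.18 in plasma cells.

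Plasma cells had higher levels of 133 of the 188 secretory genes and lower levels of 3 (limma over all 24 arrays, adjusted p under 0.05 and a log2 difference of at least 1), while 19.2% of all genes tested were higher and 24% lower. The median difference of the 188 genes was 1.63 on the log2 scale, against -0.04 over all genes tested. On the probe sets used, the median secretory gene thus stood in marginal zone cells at 32.4% of its plasma cell signal. Each gene was read from its brightest probe set. Of 153 other bright probe sets of these genes, 85 gave a difference 1 log2 unit or more away. Most of the 85 gave a larger rise in plasma cells. With the mean of probe sets, the median difference of the secretory genes was 1.76. All 3 plasma arrays lay above all 3 marginal zone arrays for 164 of the 188 genes, as for 30.7% of all genes, and below them for 9, as for 37.9% of all genes. The differences were graded. They were below -1 for 3 genes, between -1 and 0 for 11, between 0 and 1 for 39, between 1 and 2 for 64, between 2 and 4 for 56, and over 4 for 15. Of the 187 secretory genes above the median on all plasma arrays, 52 had a marginal zone mean less than 1 log2 unit below the plasma mean. This held for 77.1% of all genes on in plasma cells. With the mean of probe sets the secretory count was 45. Plasma cells held the highest mean of the 8 groups of the series for 154 of the 188 genes, and for 19.8% of all genes.

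**Figure D1:**
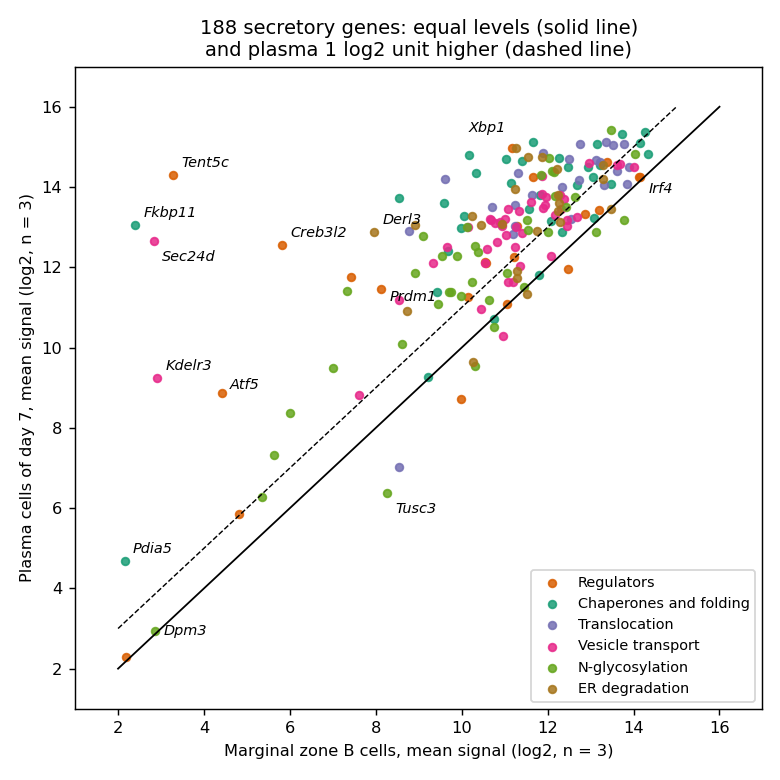
Mean signal (log2, n = 3 arrays) of the 188 secretory genes in marginal zone B cells (x axis) and plasma cells of day 7 (y axis), coloured by list, with the line of equal levels and the line of plasma cells 1 log2 unit higher. Most points lie at the upper right, above the dashed line, and a few genes (Tent5c, Fkbp11, Sec24d, Kdelr3) lie at the left edge, near the floor in marginal zone cells and at 9.23 or more in plasma cells.

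Among the 22 regulators, 13 were higher in plasma cells, 1 was lower and 8 were not called, with a median difference of 1.18. Prdm1 was intermediate in marginal zone cells. Its signal was 3.66, 3.32 and 3.30 in follicular cells, 8.70, 8.11 and 7.55 in marginal zone cells and 11.41, 11.31 and 11.63 in plasma cells. The 3 groups did not overlap. Plasma cells were 3.33 ± 0.55 (SE) log2 units above marginal zone cells (adjusted p = 3.37e-05 in limma), and marginal zone cells 4.69 ± 0.55 above follicular cells (adjusted p = 3.59e-06); both comparisons use the same marginal zone arrays. Xbp1 showed another pattern. It measured 11.32, 10.73 and 11.46 in marginal zone cells and 14.92, 15.06 and 14.97 in plasma cells, a difference of 3.81 ± 0.20 (14.1-fold, adjusted p = 8.89e-12 in limma). Its follicular values of 11.16, 11.33 and 11.32 overlapped those of marginal zone cells. The 3 other probe sets of Xbp1 gave differences of 3.70, 3.82 and 3.87. The arrays measure total Xbp1 message and not its spliced form.

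Ern1, the sensor that splices Xbp1, measured 7.99, 6.84 and 7.42 in marginal zone cells against 12.03, 11.36 and 11.92 in plasma cells, 4.35 ± 0.57 apart (adjusted p = 1.99e-06 in limma). Its follicular values of 5.64, 6.06 and 5.99 all lay below those of marginal zone cells, but that difference of 1.52 did not pass the test (adjusted p = 0.0758). Creb3l2, an ER-bound transcription factor of secretory cells, was low to moderate in marginal zone cells at 6.38, 4.62 and 6.44, and reached 12.81, 12.20 and 12.67 in plasma cells. The difference was 6.75 ± 0.52 (adjusted p = 1.68e-09 in limma). A second Creb3l2 probe set stood at 2.16 in both marginal zone and follicular cells and at 12.50 in plasma cells, so the signal in marginal zone cells rests on 1 probe set. Tent5c, a poly(A) polymerase that stabilizes messages of ER-targeted proteins, was near the floor at 3.36, 2.62 and 3.87 in marginal zone cells and at 14.40, 14.24 and 14.27 in plasma cells. Its difference of 11.02 ± 0.22 was the largest of all 188 genes. Against values near the floor, the size depends on where the floor lies. A high Tent5c signal was not limited to plasma cells: stimulated follicular, germinal center and memory cells averaged 11.88 to 12.5.

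Several other regulators on the list were already well expressed in marginal zone cells. The elongation factor gene Ell2, which favours the secreted form of heavy chain messages, averaged 11.67 ± 0.05 (SD, n = 3) in marginal zone cells and 14.25 ± 0.06 in plasma cells. Atf6, an ER-bound sensor cleaved under stress, averaged 11.29 ± 0.11 and 13.02 ± 0.34. Both rose, by 2.57 and 1.73. Eif2ak3, the gene of the ER sensor PERK, averaged 11.22 in marginal zone cells and rose by 1.03, a call that was lost without marginal zone replicate 3 (0.90) and with quantile normalization (0.99). Atf5 was not among the well expressed regulators: its marginal zone mean was 4.41, and it rose by 4.45. Bhlha15, which was not on the list, was at the floor on every marginal zone array and averaged 12.8 in plasma cells. Irf4, which promotes plasma cell fate, had nearly the same signal in marginal zone cells (14.25, 14.07 and 14.16) and plasma cells (14.22, 14.34 and 14.22), a difference of 0.10 ± 0.14 (adjusted p = 0.572 in limma). The groups overlapped on that probe set, but a dimmer Irf4 probe set gave 4.81 in marginal zone and 9.0 in plasma cells, so the probe sets disagree on Irf4. Nfe2l1 and Pou2af1 differed by 0.01 and 0.13 and were not called. Mbtps2, a protease that activates ATF6 in the Golgi, was the only member called lower in plasma cells, by 1.25 ± 0.21: it averaged 9.98 in marginal zone and 8.73 in plasma cells.

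**Figure D2:**
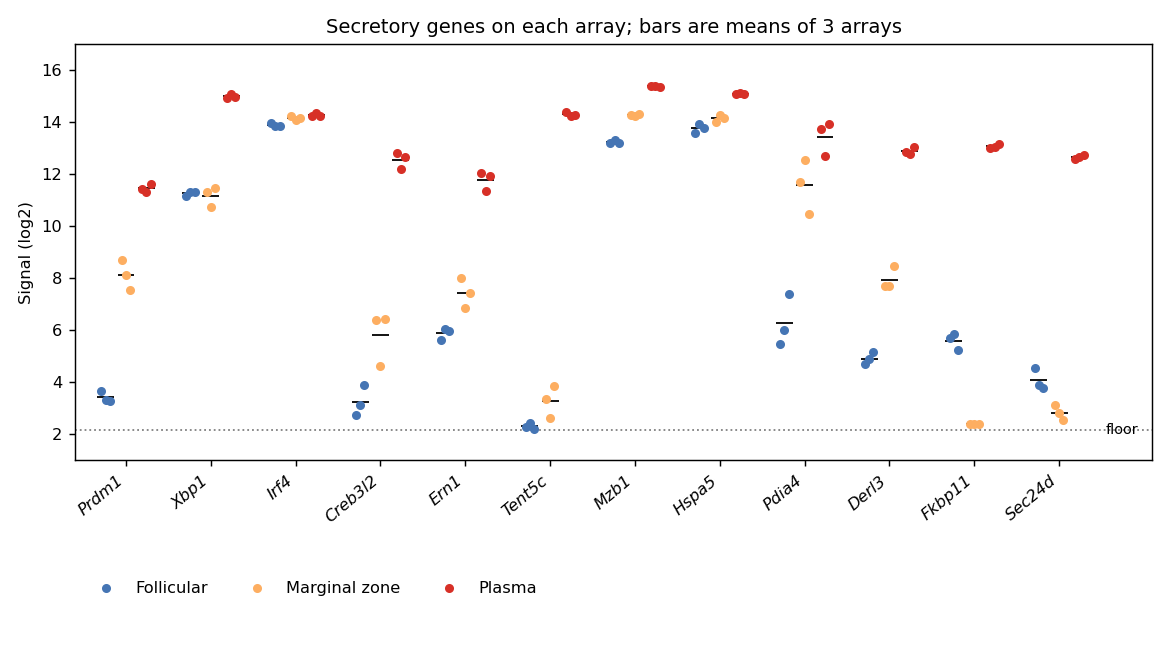
Signal (log2) of 12 secretory genes on each array of follicular, marginal zone and plasma cells, with bars at the mean of 3 arrays and a dotted line at the floor of 2.15. Prdm1, Pdia4, Derl3 and Creb3l2 step up from follicular to marginal zone to plasma cells, Xbp1 and Hspa5 lie close together in follicular and marginal zone cells, and Fkbp11 is higher in follicular than in marginal zone cells.

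Of the 35 chaperone and folding genes, 26 were higher in plasma cells and none lower (0 also at an unadjusted p under 0.05 in limma), with a median difference of 1.96. The most abundant of them were already bright in marginal zone cells. Hspa5, which encodes the chief ER chaperone BiP, measured 14.02, 14.28 and 14.16 in marginal zone cells and 15.09, 15.12 and 15.07 in plasma cells. The groups did not overlap and the adjusted p was 2.26e-07 in limma, but the difference of 0.94 ± 0.10 fell short of the 1 log2 unit required for a call; a second Hspa5 probe set gave 1.26. Calr and Canx, the lectin chaperones of glycoproteins, differed by 0.49 and 0.60 and were not called. The other Calr probe sets gave 0.44 and 0.90, but the dimmer Canx probe sets gave 3.55 and 0.97, so the probe sets disagree on Canx. Mzb1, a BiP cochaperone of antibody assembly first named for marginal zone B cells, measured 14.27, 14.22 and 14.32 in marginal zone cells and 15.40, 15.39 and 15.36 in plasma cells. It rose by 1.11 ± 0.11, so that marginal zone cells stood at 46.2% of the plasma signal. Hsp90b1, the gene of GRP94, rose by 1.91 ± 0.18 from a marginal zone mean of 13.15.

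Other folding genes separated the groups by far more. Fkbp11, a peptidyl-prolyl isomerase of secretory tissues, stood at 2.39, 2.39 and 2.40 in marginal zone cells and at 13.02, 13.03 and 13.14 in plasma cells. The difference was 10.67 ± 0.26 (adjusted p = 5.46e-17 in limma). Its other probe sets averaged only 3.02 and 2.42 in plasma cells, so the size rests on 1 probe set. Sdf2l1, a BiP cofactor, measured 8.26, 8.86 and 8.46 against 13.72, 13.56 and 13.90, and differed by 5.20 ± 0.62. Creld2 and Manf, both induced by ER stress, rose by 4.64 ± 0.18 and 4.03 ± 0.14. Pdia5, a disulfide isomerase, was at the floor on every marginal zone array and measured 5.38, 3.19 and 5.44 in plasma cells. Pdia4, another isomerase, was variable: 11.68, 12.56 and 10.48 in marginal zone cells and 13.72, 12.68 and 13.92 in plasma cells. Every plasma array lay above every marginal zone array, but the difference of 1.87 ± 1.03 did not pass the test (adjusted p = 0.129 in limma). That error is shared over all 8 groups. The SD of Pdia4 was 1.04 in marginal zone and 0.67 in plasma cells. It was larger in memory cells of day 40 (2.4) and stimulated follicular cells (2.14). The oxidase genes Ero1a and Ero1b differed by 0.00 and 0.14. The other Ero1a probe sets gave 3.04 and 2.62, a second bright Ero1b probe set gave 3.0, and 2 other Dnajc10 probe sets gave 2.08 and 1.99 where the one used gave -0.04, so none of these genes can be called level between the groups.

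The ER stress element, read here as CCAAT, any 9 bases and CCACG on either strand, is the promoter sequence through which ATF6 and XBP1 act on chaperone genes. In RefSeq promoter windows (GRCm38.p6, 250 bases before to 50 after the start) it was found in 39 of 32851 windows, or 0.119%. Of the 9102 genes tested that have a window, 13 held it (0.143%), and 11 of these were among the 157 secretory genes with a window (7.01%): Alg12, Calr, Canx, Creld2, Derl3, Dnajc3, Ero1b, Hsp90b1, Hspa5, Pdia6 and Syvn1. Stretches of Hspa5, the gene of the chief chaperone, and of 5 members called higher in plasma cells are shown on the gene's own strand, with the ends of the element in capitals; in Hspa5, Hsp90b1, Pdia6 and Syvn1 it reads forward, and in Creld2 and Derl3 on the opposite strand, as CGTGG, 9 bases and ATTGG.
Hspa5: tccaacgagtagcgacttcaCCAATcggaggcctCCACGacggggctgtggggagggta
Hsp90b1: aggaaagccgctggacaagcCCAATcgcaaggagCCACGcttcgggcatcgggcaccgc
Pdia6: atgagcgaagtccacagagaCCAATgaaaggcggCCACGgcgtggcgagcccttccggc
Creld2: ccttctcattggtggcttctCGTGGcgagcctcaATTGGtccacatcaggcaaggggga
Syvn1: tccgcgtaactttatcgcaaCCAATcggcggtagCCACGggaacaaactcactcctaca
Derl3: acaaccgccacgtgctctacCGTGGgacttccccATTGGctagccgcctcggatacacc
These stretches lie at chr2:34772005-34772063 on the plus strand (Hspa5), chr10:86705618-86705676 on the minus strand (Hsp90b1, whose window holds a second element), chr12:17266471-17266529 on the plus strand (Pdia6), chr15:88819500-88819558 on the plus strand (Creld2, which shares it with the divergent gene Alg12), chr19:6046512-6046570 on the plus strand (Syvn1) and chr10:75893222-75893280 on the plus strand (Derl3). The element begins 65 bases before the start in Hspa5, 212 in Hsp90b1, 98 in Pdia6, 126 in Creld2, 44 in Syvn1 and 156 in Derl3.

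Of the 13 genes with the element, 6 were called higher in plasma cells (Creld2, Derl3, Dnajc3, Hsp90b1, Pdia6 and Syvn1), 2 lower (Adcy3 and Pan2, neither a secretory gene) and 5 neither way, while 19.2% of the genes with a window were higher. Their median difference was 0.94. Among the 11 that are secretory genes, 54.5% were higher and the median was 1.07. Among the 157 secretory genes with a window, 68.8% were higher and the median was 1.58. The 2 lower genes differed by -2.57 (Adcy3) and -1.10 (Pan2). Those not called differed by -0.24 for Alg12, 0.14 for Ero1b, 0.49 for Calr, 0.60 for Canx and 0.94 for Hspa5, although a second bright probe set of Ero1b and one of Canx gave 3.0 and 3.55. The higher ones ran from 1.07 for Dnajc3 and 1.15 for Syvn1 to 1.91 for Hsp90b1, 2.94 for Pdia6, 4.64 for Creld2 and 4.94 for Derl3. The call of Dnajc3 was lost without plasma replicate 1 (0.94), without plasma replicate 3 (0.95) and with quantile normalization (0.97), while its 3 other bright probe sets gave 3.24, 1.22 and 3.11. A shared element therefore went with unequal differences. Of the 5 not called, Hspa5 averaged 14.15 in marginal zone cells, Calr 14.34, Canx 13.47, Ero1b 13.07 and Alg12 10.74. Those called higher averaged 13.15 (Hsp90b1), 12.08 (Dnajc3), 11.76 (Syvn1), 11.15 (Pdia6), 10.16 (Creld2) and 7.95 (Derl3) there, so the levels overlapped. Whether the level in marginal zone cells bears on the difference was not tested. Derl3 was the only one of the 13 called between marginal zone and follicular cells. A match of letters is a description of the window and not evidence of a bound factor.

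Of the 24 translocation genes measured, which bring new chains to and through the ER membrane, 18 were higher in plasma cells and 1 was lower, with a median of 1.64. Tram2, a protein next to the translocon, measured 9.58, 9.40 and 9.85 in marginal zone cells and 14.30, 14.07 and 14.25 in plasma cells, a difference of 4.6 ± 0.15 (adjusted p = 7.22e-15 in limma). Srprb, a subunit of the receptor for the signal recognition particle, rose by 4.14 ± 0.22. Ssr2 of the translocon-associated complex and Spcs2 of the signal peptidase rose by 3.05 and 2.96. Sec61a1, the channel itself, was at 12.56, 12.40 and 12.53 in marginal zone cells and at 14.64, 14.73 and 14.69 in plasma cells. The second channel gene Sec61a2 went the other way, from a mean of 8.54 to 7.03, a fall of 1.51 ± 0.37 (adjusted p = 0.00151 in limma). Srp14 and Tram1, with differences of 0.24 and 0.62, lay nearest to the plasma level. None of the 24 genes was called between marginal zone and follicular cells in limma (5 at an unadjusted p under 0.05).

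Vesicle transport between ER and Golgi followed the same course, with 33 of 45 genes higher in plasma cells, none lower (1 at an unadjusted p under 0.05 in limma) and a median of 1.63. Here 2 isoforms stood out from their families. Sec24d, a cargo adaptor of the COPII coat, was close to the floor in marginal zone cells (3.11, 2.82 and 2.55) and bright in plasma cells (12.59, 12.65 and 12.72), while Sec24c averaged 12.07 and 12.28 and Sec24b 10.96 and 10.28, neither of them called. Sec24a lay between, with a rise of 2.36. Of the receptors that return ER residents from the Golgi, Kdelr3 measured 3.03, 2.57 and 3.13 in marginal zone cells and 9.09, 9.30 and 9.31 in plasma cells. Kdelr1 and Kdelr2 were well expressed in marginal zone cells, at 10.90 and 12.97, and rose by 2.23 and 1.63. The cargo receptor Lman1 and the coat subunit Sec23a rose by 2.86 and 2.84. As in translocation, no gene of the list was called between marginal zone and follicular cells in limma (11 at an unadjusted p under 0.05).

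In N-glycosylation, 27 of 39 genes were higher in plasma cells and 1 was lower, with a median of 1.64. The mannosidase Man1b1 measured 7.21, 7.00 and 7.78 in marginal zone cells and 11.44, 11.58 and 11.20 in plasma cells, a difference of 4.08 ± 0.39. Gmppb, which makes the mannose donor, rose by 3.68, and Dpagt1 and Alg2, which act early in building the sugar precursor, by 2.95 and 2.87. Ddost, Ostc, Rpn1 and Rpn2 of the oligosaccharyltransferase rose by 2.69, 2.45, 2.31 and 2.22, and its catalytic subunits Stt3a and Stt3b differed by 0.80 and -0.25 and were not called. Other bright probe sets gave 2.27 and 4.01 for Stt3a and 1.31 for Stt3b, so the probe sets disagree on both. Tusc3, a subunit that pairs with Stt3b, fell by 1.88 ± 0.22, from a mean of 8.26 to 6.38, and its paralog Magt1 rose by 1.64.

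In ER-associated degradation, 16 of 23 genes were higher in plasma cells and none lower (1 at an unadjusted p under 0.05 in limma), with a median of 1.58. Derl3, a channel component for misfolded proteins, measured 7.69, 7.69 and 8.46 in marginal zone cells and 12.86, 12.77 and 13.04 in plasma cells, 4.94 ± 0.34 apart (adjusted p = 2.91e-10 in limma). Derl1 and Derl2 stood at 12.29 and 13.29 in marginal zone cells and were not called, with differences of 0.84 and 0.91. The other probe sets of Derl1 gave 1.13, 2.25 and 4.98 and that of Derl2 -1.49, so whether they differ from Derl3 in this respect rests on the probe set used. The mannose-trimming proteins Edem2 and Edem1 rose by 4.15 ± 0.42 and 3.72 ± 0.21, and Edem3 by 2.71. Selenok rose by 3.21 and Herpud1 by 2.86. The ubiquitin ligase Syvn1 and its partner Sel1l were at 11.76 and 12.23 in marginal zone cells and rose by 1.15 and 1.58. Aup1 and Yod1, with differences of -0.01 and -0.19, lay nearest to the plasma level.

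**Figure D3:**
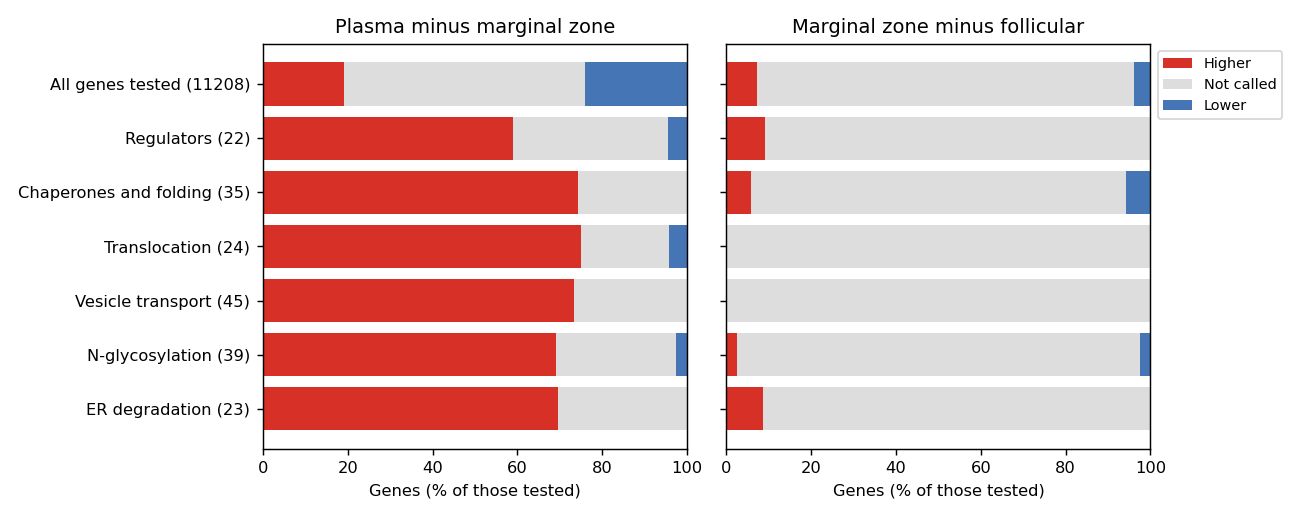
Share of genes called higher, lower or not called in each secretory list and over all genes tested (numbers of genes in parentheses), for plasma minus marginal zone cells (left) and marginal zone minus follicular cells (right). Between 13 of 22 and 18 of 24 genes of a list were higher in plasma cells, and at most 2 genes of a list were called in either direction between marginal zone and follicular cells.

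Against follicular cells, marginal zone cells differed in few secretory genes. Of the 188 genes, 7 were called higher in marginal zone cells and 3 lower, while 7.21% of all genes tested were higher and 3.82% lower. The median difference was 0.03, and 0.00 over all genes. The 7 higher genes were Prdm1, Creb3l2, Pdia4, Mzb1, Alg8, Edem1 and Derl3. Pdia4 had the largest difference: follicular arrays gave 5.47, 6.01 and 7.41, all below the marginal zone values, and the difference was 5.28 ± 1.03 (adjusted p = 0.00104 in limma). Derl3 was at 4.70, 4.88 and 5.15 in follicular cells and differed by 3.04 ± 0.34 (adjusted p = 1.75e-06 in limma). Edem1 differed by 1.42 ± 0.21, with a second probe set at 1.38. Alg8, a glucosyltransferase of the sugar precursor, differed by 1.35 ± 0.25, and Mzb1 by 1.04 ± 0.11. Mzb1 was just past the required 1 log2 unit. Of the 10 called genes, only Mzb1 lost its call under an alternative in which the gene was tested.

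The 3 genes lower in marginal zone cells were Fkbp11, Txndc5 and Dpm3. Txndc5, a plasma cell disulfide isomerase, measured 12.06, 12.02 and 11.85 in follicular cells, 10.31, 9.53 and 10.30 in marginal zone cells and 13.34, 13.37 and 13.12 in plasma cells. Marginal zone cells were thus lowest, without overlap, and a second probe set gave the same order. Fkbp11 measured 5.69, 5.84 and 5.25 in follicular cells, 3.20 ± 0.26 above marginal zone cells. Its other probe sets were at the floor in both groups, so this difference rests on 1 probe set. Dpm3, a subunit of the dolichol-phosphate mannose synthase, measured 6.52, 7.87 and 7.87 in follicular cells and 2.87 and 2.93 on average in marginal zone and plasma cells. Of 12 sort and depletion markers tested, 5 were lower and 2 higher in marginal zone cells, where 3.82% and 7.21% of all genes were. The depletion marker Cd5 was higher by 1.24, near the floor, and Fas, which encodes CD95, differed by 0.48 and was not called. Fkbp11 and Txndc5 moved with some of the lower ones. Sdc1, which encodes CD138, measured 9.58, 10.33 and 10.22 in follicular and 3.13, 2.37 and 5.05 in marginal zone cells. Cd93, which encodes the AA4.1 antigen, and Spn, which encodes CD43, were 4.23 and 5.06 lower in marginal zone cells. Jchain did not follow, at 7.73, 5.48 and 8.75 in follicular and 7.50, 6.28 and 6.86 in marginal zone cells, and Tnfrsf17 and Cd28 were at the floor in both. The part of other cells in these 3 differences was not tested.

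Set among all 8 groups of the series, the 7 genes higher in marginal zone cells did not share an order. Prdm1 was highest in plasma cells (11.45 ± 0.16, SD, n = 3) and next in marginal zone cells (8.12 ± 0.58), whose lowest array, 7.55, lay above the highest array of stimulated follicular cells, 6.90, and of germinal center cells of day 40, 6.89. Memory cells of day 7 and day 40 averaged 5.32 and 4.50 with overlapping arrays, and follicular and germinal center cells of day 7 3.43 and 3.37. Pdia4 had the same 2 groups at the top, with memory cells of day 7 next at 9.02 ± 0.96 and the other groups between 3.80 and 6.83. Mzb1 was also second in marginal zone cells, at 14.27 ± 0.05, just above memory cells of day 7 at 14.05 ± 0.13. For Derl3 and Edem1, germinal center cells lay between marginal zone and plasma cells: Derl3 averaged 8.79 and 8.89 in germinal center cells of day 7 and day 40, and Edem1 13.02 and 12.57; for Edem1, memory cells of day 7 and day 40 lay there too, at 12.51 and 11.68. Alg8 averaged 9.74 in marginal zone cells and 11.02 in stimulated follicular cells. It averaged 10.04 and 10.16 in germinal center cells of day 7 and day 40, with overlapping arrays at day 7. Creb3l2 was second in marginal zone cells at 5.81, but its arrays overlapped those of memory cells of day 7, at 4.43. Xbp1 in marginal zone cells (11.17 ± 0.39) was below germinal center cells of day 7 (12.03 ± 0.25) and overlapped follicular cells. Over the 188 genes, marginal zone cells had the highest mean of the 7 groups other than plasma cells for 21 genes, or 11.2%, where 16.5% of all genes did.

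**Figure D4:**
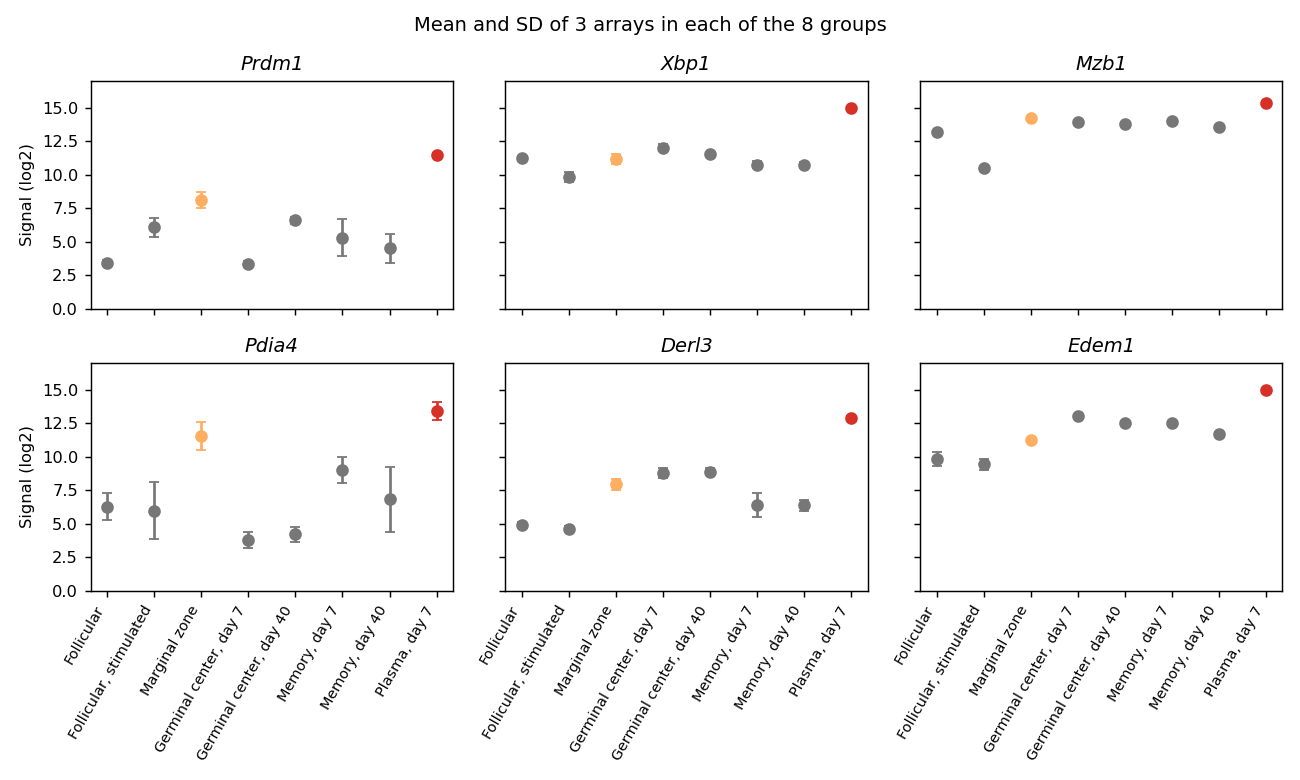
Mean signal (log2) with SD of 3 arrays in each of the 8 groups for Prdm1, Xbp1, Mzb1, Pdia4, Derl3 and Edem1, with marginal zone cells in orange and plasma cells in red. Marginal zone cells are second to plasma cells for Prdm1, Pdia4 and Mzb1, and below germinal center cells for Derl3 and Edem1.

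Genes of plasma cell products and receptors had larger differences than the secretory lists. Of 15 surface and effector genes tested of 17 measured, 11 were higher in plasma cells and none lower (1 at an unadjusted p under 0.05 in limma), with a median of 4.30; the list includes the sort markers Sdc1 and Cd93. Jchain, the chain that joins IgM and IgA polymers, rose by 8.83 ± 0.64, to 15.72, 15.76 and 15.64. A high Jchain signal was not limited to plasma cells: the germinal center and memory groups averaged 13.0 to 14.78. Slpi, a secreted protease inhibitor, measured 3.52, 2.89 and 2.97 in marginal zone cells and 15.63, 15.77 and 15.64 in plasma cells, the largest difference of all genes named by size (12.55 ± 0.20, adjusted p = 8.95e-20 in limma). Tnfrsf17, the survival receptor BCMA, and Cd28 were at the floor on every marginal zone array and averaged 12.17 and 13.21 in plasma cells. Epcam and Plpp5 were intermediate. Epcam measured 3.78, 3.98 and 3.98 in follicular, 7.91, 8.31 and 7.03 in marginal zone and 12.12, 11.71 and 12.33 in plasma cells, and Plpp5 averaged 7.09 in marginal zone and 12.87 in plasma cells.

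Immunoglobulin probe sets were read with caution, since heavy chain probe sets share sequence and the sort used IgG1, Igλ and the removal of IgM+ and IgD+ cells. Igha averaged 2.65 in marginal zone and 14.46 in plasma cells, and 2 other probe sets of it gave differences of 11.80 and 10.20. For Ighm, the probe set used fell by 1.05, from 14.62 to 13.57, while others assigned to the same symbol were near the floor in marginal zone cells and reached up to 15.72 in plasma cells, so no direction is given for it. Of 7 immunoglobulin and receptor genes tested, 2 were higher, where 19.2% of all genes were. Beside Ighm the genes called lower were Cd79a and Vpreb3. Cd79a, a signalling chain of the B cell receptor, fell by 1.74 ± 0.11, and Cd79b differed by -0.34 and was not called.

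The B cell program ran opposite to the secretory one. Of 25 identity genes, 20 were lower in plasma cells and none higher (0 also at an unadjusted p under 0.05 in limma), with a median of -2.50. Cxcr5, the receptor that guides B cells to follicles, measured 13.12 ± 0.25 (SD) in marginal zone and 2.30 ± 0.10 (SD) in plasma cells. The inhibitory receptors Cd72 and Cd22 fell by 10.78 and 10.74. Pax5, the factor that maintains B cell identity, measured 6.77, 6.27 and 7.33 in marginal zone cells and was at the floor on all 3 plasma arrays. Bach2, which holds back plasma cell differentiation, measured 12.54, 13.56 and 13.47 in follicular, 10.03, 10.42 and 10.48 in marginal zone and 7.58, 8.27 and 8.13 in plasma cells. It was thus intermediate without overlap. Bach2 was 2.32 ± 0.36 lower in plasma than in marginal zone cells (adjusted p = 1.55e-05 in limma). It was 2.88 ± 0.36 lower in marginal zone than in follicular cells (adjusted p = 7.18e-06 in limma). Other Bach2 probe sets fell further in plasma cells, with differences of -4.9 and -5.35 and plasma means of 5.71 and 5.26. They gave -2.85 and -2.89 between marginal zone and follicular cells. Bcl6 had the same order, with differences of -2.94 and -1.96. Of the 13 class II presentation genes, 10 were lower in plasma cells and none higher (0 also at an unadjusted p under 0.05 in limma). Ciita, the master regulator of class II genes, fell by 9.61 and Cd86, a costimulatory ligand, by 7.81.

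Marginal zone markers served as a check on the labels. Of 19 measured, among them the sort marker Cr2, 13 were higher in marginal zone than in follicular cells and 0 lower, with a median of 3.08. Of all genes tested, 7.21% were higher in that comparison. In plasma cells 13 of the 19 were lower than in marginal zone cells and 1 was higher, with a median of -6.02. Of all genes, 24% were lower and 19.2% higher. That fall is no check on the marginal zone label, since most B cell identity genes fell too. S1pr3, a receptor that holds cells in the marginal zone, fell by 11.89 and Dtx1, a target of Notch signalling, by 11.26. Cr2 and Fcer2a, which encode CD21 and CD23, were sort markers and are no finding: Cr2 averaged 13.10, 14.22 and 2.65 in follicular, marginal zone and plasma cells, and Fcer2a 12.97, 8.67 and 2.32, as the gates require of marginal zone and follicular cells. Other genes with the largest falls were Tlr1, a toll-like receptor, by 11.58, and Srpk3, Edaradd and Ffar2, by 11.09, 10.89 and 10.47. Beside Slpi, Igha, Sdc1, Cd28, Tent5c, S100a8 and S100a9, the 10 largest rises held Tmem176b, Thbd and Reln, by 11.28, 10.91 and 10.89.

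Many mitosis genes were also intermediate in marginal zone cells. All 23 mitosis genes were higher in plasma cells, with a median of 3.87. Between marginal zone and follicular cells, 15 of the 23 were higher in marginal zone cells, with a median of 3.78. Over all genes tested, 19.2% were higher and 24% lower in plasma than in marginal zone cells. The share higher in marginal zone than in follicular cells was 7.21%. Mki67, a marker of cycling cells, measured 8.47, 6.84 and 6.42 in follicular, 11.34, 11.09 and 11.66 in marginal zone and 14.08, 14.54 and 14.11 in plasma cells. Its marginal zone signal was 17.4-fold the follicular one (adjusted p = 5.16e-06 in limma). Of 23 DNA replication genes, 11 were higher and 1 lower in plasma cells, but only 3 were higher in marginal zone than in follicular cells, with a median of 0.41. Of 21 amino acid supply genes, 13 were higher and none lower (1 at an unadjusted p under 0.05 in limma), with a median of 1.17: Asns, asparagine synthetase, rose by 5.83 and Chac1, a glutathione-degrading enzyme induced by stress, by 8.38 from near the floor. ER lipid synthesis did not rise as a list. Of its 22 genes 2 were higher and 4 lower, with a median of -0.21; the desaturase Scd1 fell by 2.27 and Chka, choline kinase, by 1.85. Of 25 oxidative phosphorylation genes 6 were higher and none lower (1 at an unadjusted p under 0.05 in limma), with a median of 0.52. That share higher was near the 19.2% of all genes. None of 15 ribosomal protein genes was called in limma (4 at an unadjusted p under 0.05).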

How the data were processed

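Expression was measured on Affymetrix whole-genome mouse arrays with RNA from sorted splenic cells. The deposited values are log2 signals summarised by GCRMA, per the submitters' processing notes; version and settings are not given in the sources used here. They were used as deposited. Of 45101 probe sets, 34945 name 1 gene, 932 several and 9160 none beside 64 controls. Each of 18193 genes was read from its probe set with the highest mean, and 11208 genes above the array median on at least 3 arrays were tested.

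Limma 3.58.1 in R 4.3.3 fitted 8 group means over 24 arrays (16 residual degrees of freedom) with no block. Genes were called at a Benjamini-Hochberg adjusted p under 0.05 and a log2 difference of at least 1. Errors after ± are standard errors where they follow a difference, and SDs between arrays where they follow a group mean. The members and gene lists were chosen with earlier results of these data known. Lists, 23 with 499 genes of which 456 had a probe set and 432 were tested, are given as counts and medians. Genes were named by rule. The rule took the 10 largest rises and falls without overlap (without placeholder names and variable segments of antigen receptors). It also took index genes, the largest called changes and nearest levels in each list, and sort markers. Others in the text, such as isoforms, subunits and Bhlha15, were chosen after their values were seen. Promoters came from RefSeq (GRCm38.p6). Proteins with an ER retention signal were not analysed here. The procedure was tested on simulated data. No column was left unassigned. The number of arrays limits the precision.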

Additional observations from a re-analysis of the deposited data

Results flagged for a closer look

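For 10 secretory genes the plasma cell difference depended on whether it was measured against marginal zone or follicular cells. The difference of the differences equals the marginal zone minus follicular contrast with its sign turned, and was tested as that contrast in limma. The 10 genes are those called in it, at an adjusted p under 0.05 and a log2 difference of at least 1. Against marginal zone cells the signed plasma difference was lower than against follicular cells by a log2 value of -4.69 for Prdm1, -2.57 for Creb3l2, -5.28 for Pdia4, -1.04 for Mzb1, -1.35 for Alg8, -1.42 for Edem1 and -3.04 for Derl3. It was higher by 1.93 for Txndc5, by 3.20 for Fkbp11 and by 4.55 for Dpm3. For Dpm3 the difference itself was -4.49 against follicular cells and 0.06 against marginal zone cells.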

How the results depend on the processing

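Leaving out each array in turn gave 131 to 133 secretory genes higher in plasma cells, and the other alternatives 128 to 156. Quantile normalization gave 131, and leaving out, in each group, the array least often at the floor (plasma replicate 2, marginal zone replicate 2 and follicular replicate 1; chosen after seeing the data) gave 130. Of the 136 secretory genes called between plasma and marginal zone cells, 121 kept their call under every alternative in which they were tested; those that did not were Alg9, Atf4, Copg1, Copz1, Dad1, Dnajc3, Dolk, Eif2ak3, Ganab, Ost4, Ppp1r15a, Selenof, Tmed2, Uggt1 and Vcp. Of the 10 called between marginal zone and follicular cells, 9 did. Shifting the arrays to the same median moved the median of all genes for plasma minus marginal zone from -0.04 to 0.15 and that of the secretory genes from 1.63 to 1.82. With the stricter filter, which tests fewer genes, 491 genes were higher in marginal zone than follicular cells and 1 secretory gene was lower in plasma cells. With no minimum change, 763 genes were lower in marginal zone than follicular cells, 8 secretory genes were lower in plasma cells, and 18 were higher and 7 lower in marginal zone cells. With only the compared groups in the fit, 5 secretory genes were lower in marginal zone cells; the cause was not tested. The mean of probe sets turned 3 values that disagree between probe sets: Dnajc10 to 1.34, Ero1a to 1.89 and Ighm to 7.34. Of 153 other bright probe sets of secretory genes, 14 had the opposite sign and 85 a difference 1 log2 unit or more away. The labels give no pairing beyond the replicate numbers. Same-number correlations of deviations from the group means were 0.369, 0.298 and 0.024 between plasma and marginal zone arrays. Different numbers gave -0.387 to 0.277. Between marginal zone and follicular arrays the values were -0.263, -0.496 and 0.158, and -0.383 to 0.497 for different numbers. With 3 arrays in a group, these values cannot settle whether the numbers pair the arrays. With the replicate number as a block, 2158 genes were higher and 2697 lower in plasma than in marginal zone cells, against 2157 and 2688 without it, and 134 secretory genes were higher.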
